A study of Mus musculus with 20 samples.

Results

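The growth hormone, IGF1 and insulin signaling axis of the liver was followed through 10 genes: the receptor gene *Ghr*, the growth factor gene *Igf1*, the IGF carriers *Igfals*, *Igfbp1* and *Igfbp2*, the feedback inhibitor *Socs2*, the insulin receptor gene *Insr*, the receptor substrates *Irs1* and *Irs2*, and the transcription factor gene *Foxo1*. They were chosen by gene symbol among 50559 genes counted by RNA-seq, and all 10 were present and passed the filter on low counts in every comparison. The 20 livers came from mice homozygous for a floxed *Cideb* allele on the C57BL/6 background, in 4 groups of 5. The WT groups had received AAV-TBG-GFP and KO livers AAV-TBG-Cre, so the controls carry the floxed allele and a virus as well, and the TBG promoter limits Cre, and with it the loss of *Cideb*, to hepatocytes. Mice of either kind were fed a Western diet (WD) or a high-fat diet without choline and with defined amino acids (CDA-HFD). The labels give 3 months for either diet and no age or sex, whereas the study's account describes longer feeding on WD than on CDA-HFD, so diet and its length cannot be told apart. Each diet was fed to its own mice, so diet differences are read as differences between these sets of mice. A cohort or batch that went with diet cannot be told apart from it either. The comparisons ask whether these genes differed between KO and WT livers on each diet, whether they differed between the diets, and whether the KO difference depended on the diet.

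Growth hormone from the pituitary binds GHR on hepatocytes, and the kinase JAK2 then activates STAT5, which drives *Igf1*, *Igfals* and *Socs2*. IGF1 leaves the liver in blood as a complex with a binding protein and the acid labile subunit that *Igfals* encodes, and SOCS2 dampens the receptor in turn. Insulin acts through the receptor encoded by *Insr* and the adaptors IRS1 and IRS2, whose signal moves FOXO1 out of the nucleus. FOXO1 in the nucleus drives *Igfbp1*, *Irs2* and genes of glucose production, so *Igfbp1* is known as a gene that insulin represses.

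Promoter sequence is shown for *Igfbp1*, *Igfals* and *Igf1*, because the classical response sites of insulin and growth hormone are described for genes of this axis. Each window holds the 250 bases before an annotated start, 5′ to 3′ on the plus strand, from the RefSeq table of build GRCm38.p6, which had entries for 8 of the 10 genes but not for *Socs2* and *Insr*. Capitals mark matches on either strand to the STAT5 motif TTCNNNGAA, the FOXO motif GTAAACA or CAAAACA, the core of the insulin response sequence. Among the windows of the same length before all 32851 annotated starts, 7.02% held the STAT5 motif, 3.17% the FOXO motif and 5.56% the insulin response core, and no matches overlapped in the windows read.
*Igfbp1*, chr11:7197537-7197786: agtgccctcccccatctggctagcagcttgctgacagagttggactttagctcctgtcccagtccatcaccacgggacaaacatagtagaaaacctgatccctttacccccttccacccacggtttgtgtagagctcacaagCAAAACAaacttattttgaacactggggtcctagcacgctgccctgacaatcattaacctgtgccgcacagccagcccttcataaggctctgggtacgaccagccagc
*Igfals*, chr17:24877981-24878230: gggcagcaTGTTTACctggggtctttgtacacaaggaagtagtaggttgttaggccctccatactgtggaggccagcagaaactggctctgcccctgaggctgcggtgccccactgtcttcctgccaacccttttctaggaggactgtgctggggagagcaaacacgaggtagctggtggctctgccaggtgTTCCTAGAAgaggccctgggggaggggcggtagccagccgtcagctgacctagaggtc
*Igf1*, chr10:87860861-87861110: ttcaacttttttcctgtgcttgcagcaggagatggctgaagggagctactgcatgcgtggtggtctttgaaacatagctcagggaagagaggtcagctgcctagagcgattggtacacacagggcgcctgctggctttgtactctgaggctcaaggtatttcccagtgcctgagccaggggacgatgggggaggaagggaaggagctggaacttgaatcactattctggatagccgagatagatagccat
The *Igfbp1* window held the insulin response core from 108 to 102 bases before the start, and the *Igfals* window held TGTTTAC, the FOXO motif on the minus strand, from 242 to 236 and a STAT5 match from 58 to 50 bases before the start. A second *Igfals* start had a STAT5 match, TTCTCAGAA, from 236 to 228 bases before it. The minus-strand form of the core, TGTTTTG, occurred in the windows of *Irs1* and *Irs2*. The letters searched were not in the *Igf1* window, nor in those of *Ghr*, *Igfbp2* and *Foxo1*. These matches are descriptions of the sequence.

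The reads assigned to genes numbered 11697049 in the shallowest liver and 16827147 in the deepest, and the least counted of the 10 genes, *Socs2*, still had 93 reads in the liver where it was lowest. *Cideb* averaged 6.06 ± 1.12 CPM (CPM is the read count relative to the total on genes, scaled by the TMM method; SD, n = 5) in WT and 0.155 ± 0.165 in KO livers fed WD. The groups fed CDA-HFD averaged 3.05 ± 0.653 and 0.163 ± 0.154. In every liver the Y-linked *Ddx3y* exceeded 60 CPM and *Xist* was at most 2.12 CPM, as in male mice. Markers of 7 liver cell types were detected in every group, and those of hepatocytes had by far the largest sums. In bulk liver, fewer cells of a type and less RNA per cell cannot be told apart. On CDA-HFD the WT livers had lower summed levels of 6 hepatocyte markers (29100 to 64070 CPM) than on WD (53960 to 92460 CPM), with 4 of 6 markers past the test in that direction, whereas 5 of 6 stellate cell and 6 of 6 cholangiocyte markers were higher.

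KO CDA-HFD liver 5 stood apart from its group. Its *Cideb* level was 0.06 CPM, as its label says, but its hepatocyte marker sum of 30850 CPM was the lowest of the KO livers on CDA-HFD (median 69950), and its sums for stellate cells (2173 CPM against a median of 978.8), cholangiocytes (649.5 against 133.4) and macrophages (1308 against 648.4) were the highest. For all 10 genes its level lay outside the range of the other 4 KO livers on CDA-HFD, and for 8 of 10 inside the range of the WT livers. The share of all genes with such a position was not counted, so this is not read as a trait of these 10. Over all genes, 2664 passed between KO and WT livers on CDA-HFD with liver 5 and 7201 without it. Values of the 10 genes and counts of gene lists that involve this group are therefore given with and without it, and it was singled out after its values were seen, although leaving out each library in turn was among the chosen alternatives. The part of cell composition in these results was not tested.

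Measured per kilobase of exon, *Igfbp2* was the most abundant of the 10 genes in every group, from 107 ± 43.3 CPM per kb in WT WD livers to 318 ± 102 in KO CDA-HFD livers (SD, n = 5). *Ghr* and *Igf1* followed on WD, at 62 ± 9.68 and 56.3 ± 7.56 CPM per kb in WT livers, a gap within their spread. *Socs2* was the least abundant throughout, between 1.86 ± 0.809 and 3.27 ± 1.76 CPM per kb. The signaling genes *Irs1*, *Irs2* and *Foxo1* lay between 6.29 and 16.1 CPM per kb in their group means. In WT WD livers *Foxo1* (9.98 to 20.2) lay above *Irs1* (5.38 to 8.67) and *Irs2* (5.4 to 7.93), which overlapped. In the other groups neighbours among them overlapped.

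On WD, none of the 10 genes differed between KO and WT livers past the threshold (an adjusted p under 0.05 from edgeR's quasi-likelihood F test), nor did DESeq2 call any. At an unadjusted p under 0.05 there were 2, *Igfals* and *Irs1*, both higher in KO livers, where 10.7% of all genes had such a p. Of all 15848 genes tested on this diet, 0.0757% passed the adjusted threshold. On CDA-HFD, *Igfals* rose 2.91-fold in KO livers and was the only one of the 10 to pass, where 15.5% of all 17204 genes passed (1409 higher and 1255 lower, or 517 and 1192 with scaling by library size only). Without KO liver 5, 8 of 10 passed, with *Ghr*, *Igfals*, *Insr*, *Irs1* and *Foxo1* higher and *Igfbp1*, *Socs2* and *Irs2* lower in KO livers, and 41.4% of all 17411 genes passed.

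Between the diets, WT livers had less *Ghr*, *Insr* and *Foxo1* and more *Igfbp2* on CDA-HFD than on WD, 4 of 10 genes against 51.1% of all 16726 genes, a share no larger than the background (over all genes 4335 higher and 4207 lower, or 9120 and 1570 by library size). In KO livers *Igfbp2* was higher and *Foxo1* lower on CDA-HFD, 2 of 10 genes against 17% of all 16387 genes (1506 higher and 1286 lower, or 3371 and 553 by library size). Without KO CDA-HFD liver 5, *Igfbp1* and *Irs2* also passed, both lower on CDA-HFD, which made 4 of 10 genes against 17.4% of all genes. The difference between the KO effects on the 2 diets passed for 0 of 10 genes, where 0.556% of all 17804 genes passed. *Irs2* alone had an unadjusted p under 0.05 there, as did 15.4% of all genes, and DESeq2 also called 0. Without liver 5 the interaction passed for *Igfbp1* and *Irs2*, 2 of 10 genes against 11.9% of all genes. Comparisons within a diet share livers with those between diets, so their values stand side by side and are not independent of each other.

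**Figure D1:**
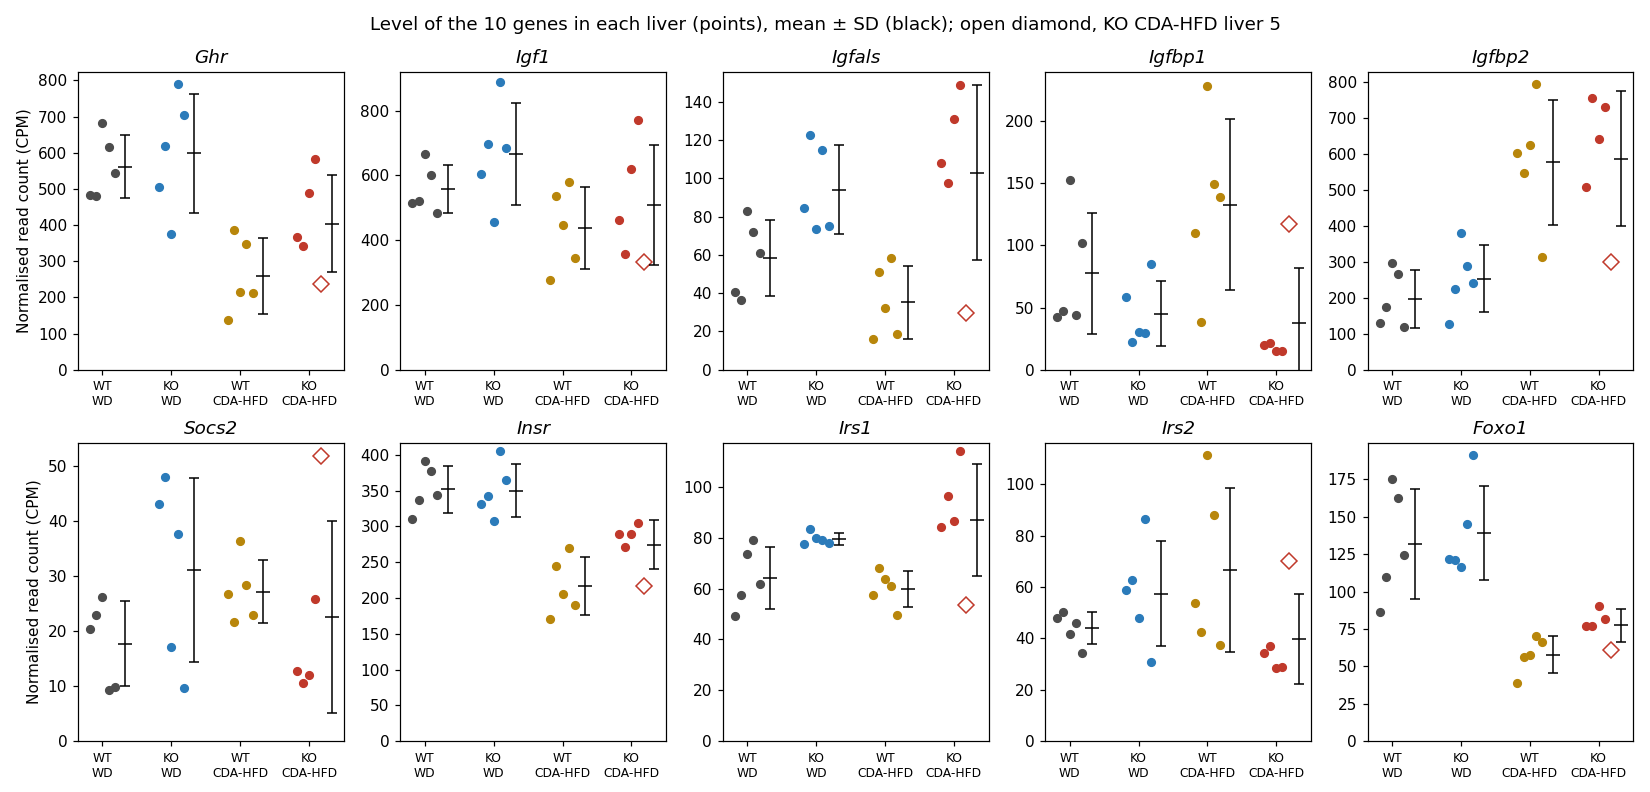
Normalised read count (CPM, vertical axes, each from 0) of the 10 genes in each of 20 livers, in 4 groups of 5. Points are livers in the order of their labels, black bars are the mean ± SD, and the open diamond is KO CDA-HFD liver 5, which lies outside the range of the other 4 KO livers on that diet in every panel.

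The gene *Ghr* (chr15:3317760-3583492, minus strand) encodes the receptor through which the liver senses growth hormone. On WD its levels in livers 1 to 5 were 483, 480.3, 682.4, 616.5 and 544.4 CPM in WT and 504, 617.5, 375.7, 790.9 and 704.4 CPM in KO livers. On CDA-HFD they were 138.2, 385.9, 213.8, 348.2 and 211.7 CPM in WT and 367.5, 343.1, 488.4, 582.6 and 236 CPM in KO livers. All WT livers on CDA-HFD lay below all WT livers on WD, while KO and WT livers overlapped on either diet. In WT livers *Ghr* fell by 1.12 on the log2 scale from WD to CDA-HFD (SE 0.248, adjusted p = 0.0028), and its smallest fall over 17 alternatives was 0.72, with scaling by library size only. In KO livers the diet difference was -0.58 (SE 0.25, adjusted p = 0.13; -0.44 without liver 5). The KO difference on CDA-HFD was 0.63 with all livers (SE 0.304, adjusted p = 0.163, with a range of 0.0433 to 0.322 over 17 alternatives). In the alternative without liver 5 the KO difference was 0.77 (SE 0.277, adjusted p = 0.0433). On WD it was 0.10 (95% interval -0.312 to 0.507).

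*Igf1* (chr10:87858265-87937042, plus strand) encodes the growth factor that carries most of the action of growth hormone on the body. Its WD levels were 513.8, 521, 665.6, 602.5 and 483.3 CPM in WT and 603.1, 696.5, 456.1, 888.7 and 685.8 CPM in KO livers. Its CDA-HFD levels were 276.1, 536.3, 446.8, 579 and 344.7 CPM in WT and 461.7, 357.4, 618.8, 770.7 and 333.7 CPM in KO livers. The 4 groups overlapped, and *Igf1* passed in none of the comparisons, with or without liver 5. Its diet difference was -0.36 on the log2 scale in WT livers (95% interval -0.775 to 0.0598) and -0.40 in KO livers (-0.931 to 0.134; a difference of -0.28 without liver 5). Its KO difference was 0.26 on WD (-0.0944 to 0.618) and 0.21 on CDA-HFD (-0.38 to 0.804; a difference of 0.33 without liver 5).

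*Igfals* (chr17:24865997-24882010, plus strand) encodes the acid labile subunit, which prolongs the life of IGF1 in blood. On WD it measured 40.36, 36.37, 82.79, 71.82 and 60.79 CPM in WT livers 1 to 5 and 84.34, 122.8, 73.44, 114.7 and 75.02 CPM in KO livers. On CDA-HFD it measured 16.08, 50.83, 32.2, 58.54 and 18.64 CPM in WT and 107.8, 97.35, 131, 148.9 and 29.58 CPM in KO livers. KO livers 1 to 4 all lay above every WT liver on CDA-HFD, and liver 5 lay among the WT livers. *Igfals* rose by 1.54 in KO livers on CDA-HFD (log2, SE 0.451, adjusted p = 0.0428, exact two-sided permutation p = 0.0317). The call was lost in 9 of 17 alternatives, 8 of which left out a single library other than liver 5 and 1 of which scaled by library size only, with adjusted p-values up to 0.1 and differences from 1.33 to 1.81. Without liver 5 the rise was 1.78 (SE 0.342, adjusted p = 0.00223). On WD the difference was 0.69 (SE 0.236, adjusted p = 0.325). Between diets the difference was -0.74 in WT livers (SE 0.359, adjusted p = 0.106) and 0.12 in KO livers (SE 0.332, adjusted p = 0.84; 0.35 without liver 5). Among the windows read for the 8 genes, STAT5 matches stood in those of *Igfals* alone, but no window was read for *Socs2* or *Insr*. Whether the matches bear on the level of *Igfals* was not tested.

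The feedback inhibitor gene *Socs2* (chr10:95385362-95417180, minus strand) is itself induced by growth hormone. It measured 20.37, 22.87, 26.11, 9.225 and 9.852 CPM in WT and 43.05, 47.99, 17.15, 37.68 and 9.71 CPM in KO livers on WD. Its levels with CDA-HFD were 26.69, 21.64, 36.29, 28.33 and 22.97 CPM in WT and 12.68, 10.58, 12.04, 25.8 and 51.84 CPM in KO livers. Liver 5 had the highest *Socs2* level of the KO CDA-HFD group and KO livers 1 to 3 the lowest, all 3 of them under every WT liver on that diet. The KO difference was 0.82 on the log2 scale on WD (SE 0.422, adjusted p = 0.519) and -0.27 on CDA-HFD (SE 0.402, adjusted p = 0.651). Over 17 alternatives to the CDA-HFD fit the adjusted p ranged from 0.0193 to 0.895. In the alternative without liver 5 *Socs2* fell by 0.84 on CDA-HFD (SE 0.249, adjusted p = 0.0193). The interaction was -1.08 with all livers (SE 0.628, adjusted p = 0.42) and -1.65 without liver 5 (SE 0.546, adjusted p = 0.0545). Between diets the difference was 0.61 in WT livers (SE 0.273, adjusted p = 0.0813) and -0.46 in KO livers (SE 0.515, adjusted p = 0.577; -1.04 without liver 5). *Igfals* and *Socs2*, both known STAT5 targets, had KO differences of opposite sign on CDA-HFD with or without liver 5. For *Socs2* the sign rested on KO livers 1 to 3, since liver 4 lay inside the WT range. With all livers its difference was smaller than its SE and did not pass.

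*Igfbp1* (chr11:7197782-7202546, plus strand) encodes the binding protein that insulin represses through FOXO1. On WD its levels were 42.79, 47.38, 152.3, 43.94 and 101.5 CPM in WT and 58.68, 22.17, 30.19, 29.7 and 84.88 CPM in KO livers. On CDA-HFD they were 109.7, 38, 227.6, 149.5 and 138.5 CPM in WT and 19.93, 21.86, 15.43, 14.78 and 116.9 CPM in KO livers. KO livers 1 to 4 on CDA-HFD had the lowest levels of all 20 livers, below 22 CPM, while liver 5 was more than 5 times as high as any of them. The KO difference on CDA-HFD was -1.82 on the log2 scale with all 5 livers (SE 0.64, adjusted p = 0.0733, exact two-sided permutation p = 0.0238). Over 17 alternatives to that fit the adjusted p ranged from 0.000485 to 0.163, and 4 of them passed. In the alternative without liver 5 *Igfbp1* fell by 2.88, or 7.37-fold (SE 0.409, adjusted p = 0.000485). The WD difference was -0.79 (SE 0.439, adjusted p = 0.552). The diet difference was 0.77 in WT livers (SE 0.455, adjusted p = 0.179) and -0.24 in KO livers (SE 0.609, adjusted p = 0.819). Without liver 5 the latter was -1.34 (SE 0.359, adjusted p = 0.0259) and the interaction was -2.10 (SE 0.645, adjusted p = 0.0407). Both were the lowest adjusted p among the alternatives to the fits with all livers, which reached 0.974 over 17 and 0.748 over 26.

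*Igfbp2* (chr1:72824503-72852474, plus strand) encodes a second IGF carrier that the liver secretes. It measured 131.4, 173.3, 295.6, 266.8 and 118.5 CPM in WT and 127.8, 225.9, 381.4, 288.9 and 242.4 CPM in KO livers on WD. Its levels with CDA-HFD were 603.3, 548.4, 625.2, 794.6 and 313.7 CPM in WT and 508, 755.4, 641.5, 730.7 and 299 CPM in KO livers. Every WT liver on CDA-HFD exceeded every WT liver on WD, and among KO livers the diets overlapped only through liver 5. *Igfbp2* rose on CDA-HFD by 1.54 in WT livers (log2, SE 0.292, adjusted p = 0.00105) and by 1.20 in KO livers (SE 0.296, adjusted p = 0.02; 1.37 without liver 5). The KO call was lost when KO WD liver 2 was left out (adjusted p = 0.0533, in a range of 0.000781 to 0.0533 over 17 alternatives). KO and WT livers overlapped on both diets, with a difference of 0.02 on CDA-HFD (95% interval -0.595 to 0.634; a difference of 0.19 without liver 5) and 0.36 on WD (-0.299 to 1.03).

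**Figure D2:**
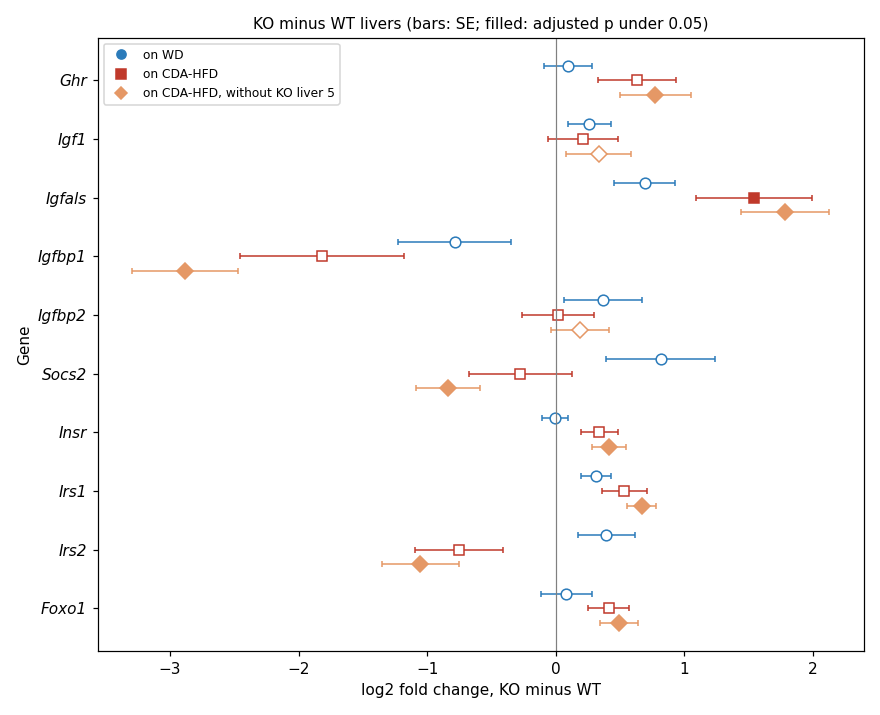
KO minus WT difference of each gene on the log2 scale (horizontal axis) on WD, on CDA-HFD and on CDA-HFD without KO liver 5. Bars are standard errors and filled symbols have an adjusted p under 0.05: none on WD, *Igfals* at 1.54 on CDA-HFD, and 8 of 10 genes without liver 5.

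*Insr* (chr8:3122061-3279617, minus strand) encodes the insulin receptor. On WD it measured 310.2, 337.1, 391.5, 378.2 and 343.7 CPM in WT and 331.1, 343, 307.4, 404.8 and 364.7 CPM in KO livers. On CDA-HFD it measured 171, 245, 205.2, 269.9 and 190.1 CPM in WT and 289.8, 270.9, 289.5, 305.4 and 217.1 CPM in KO livers. No liver on CDA-HFD reached the level of any liver on WD, in WT or in KO. *Insr* fell by 0.71 on the log2 scale in WT livers on CDA-HFD (SE 0.131, adjusted p = 0.00088). In KO livers the diet difference was -0.36 (SE 0.115, adjusted p = 0.0523, exact two-sided permutation p = 0.00794, the smallest that 5 against 5 livers allow), and it passed in 4 of 17 alternatives (without liver 5 it was -0.29, adjusted p = 0.062). KO livers on WD were level with WT livers, at -0.00 (95% interval -0.222 to 0.213). On CDA-HFD the KO difference was 0.34 with all livers (SE 0.145, adjusted p = 0.123, with a range of 0.0288 to 0.285 over 17 alternatives). In the alternative without liver 5 the KO difference was 0.41 (SE 0.134, adjusted p = 0.0288).

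*Irs1* (chr1:82233101-82291416, minus strand) encodes a substrate of the receptor. Its WD levels were 49.21, 57.44, 73.48, 79.26 and 61.67 CPM in WT and 77.35, 83.31, 79.87, 79.16 and 77.84 CPM in KO livers. Its CDA-HFD levels were 57.38, 68.17, 63.63, 60.82 and 49.55 CPM in WT and 84.38, 96.39, 86.65, 114 and 53.52 CPM in KO livers. The 5 KO livers on WD were within 6 CPM of each other, and KO livers 1 to 4 on CDA-HFD exceeded every WT liver of that diet. The KO difference was 0.31 on the log2 scale on WD (SE 0.116, adjusted p = 0.383) and 0.53 on CDA-HFD (SE 0.173, adjusted p = 0.0573). Over 17 alternatives to the CDA-HFD fit the adjusted p ranged from 0.00122 to 0.133, and 4 of them passed. In the alternative without liver 5 *Irs1* rose by 0.67 on CDA-HFD (SE 0.114, adjusted p = 0.00122). The diets did not differ past the threshold, at -0.11 in WT livers (95% interval -0.39 to 0.177) and 0.12 in KO livers (-0.216 to 0.458; a difference of 0.25 without liver 5). With scaling by library size only, the diet difference in WT livers turned to 0.33 and passed (adjusted p = 0.0158), in 1 of 17 alternatives. Of the exon bases of *Irs1*, 30.9% overlap the predicted gene *Gm9747* on the opposite strand, so its counts are uncertain if strand was not used in counting.

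*Irs2* (chr8:10984681-11008458, minus strand) encodes the substrate that FOXO1 induces in fasting. It measured 47.8, 50.13, 41.62, 45.83 and 34.15 CPM in WT and 58.87, 62.62, 47.9, 86.6 and 30.93 CPM in KO livers on WD. Its levels with CDA-HFD were 53.76, 42.37, 111.6, 88.15 and 37.38 CPM in WT and 34.21, 37.2, 28.33, 28.89 and 70.14 CPM in KO livers. KO livers 1 to 4 lay under the lowest WT liver on CDA-HFD, liver 2 only just, and liver 5 lay between the WT livers. The KO difference was 0.39 on the log2 scale on WD (SE 0.221, adjusted p = 0.554) and -0.75 on CDA-HFD (SE 0.342, adjusted p = 0.142), and the interaction was -1.13 (SE 0.432, adjusted p = 0.227). Without liver 5 *Irs2* fell by 1.05 in KO livers on CDA-HFD (SE 0.297, adjusted p = 0.0153), and the interaction was -1.44 (SE 0.393, adjusted p = 0.0249). Both were the lowest adjusted p among the alternatives to the fits with all livers, which reached 0.334 over 17 and 0.394 over 26. In WT livers the diet difference was 0.60 (SE 0.272, adjusted p = 0.0871). In KO livers it was -0.53 (SE 0.301, adjusted p = 0.246, with a range of 0.0318 to 0.652 over 17 alternatives). In the alternative without liver 5 the diet difference was -0.85 (SE 0.238, adjusted p = 0.0318). *Irs1* and *Irs2* had KO differences of opposite sign on CDA-HFD with or without liver 5, and both passed once it was left out. *Irs2* shares 2.56% of its exon bases with a gene on the opposite strand.

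*Foxo1* (chr3:52268336-52353221, plus strand) encodes the transcription factor that insulin holds out of the nucleus. On WD its levels were 86.51, 109.6, 175.1, 162.8 and 124.4 CPM in WT and 121.8, 121.3, 116.2, 145.2 and 191.6 CPM in KO livers. On CDA-HFD they were 38.57, 56.11, 57.72, 70.36 and 66.48 CPM in WT and 77.13, 76.88, 90.31, 81.75 and 60.66 CPM in KO livers. The diets did not overlap in either genotype. *Foxo1* fell on CDA-HFD by 1.19 in WT livers (log2, SE 0.204, adjusted p = 0.00055) and by 0.86 in KO livers (SE 0.15, adjusted p = 0.00405; a fall of 0.78 without liver 5), and it passed in 17 of 17 alternatives in either genotype. The KO difference was 0.08 on WD (95% interval -0.348 to 0.515) and 0.41 on CDA-HFD (SE 0.159, adjusted p = 0.0942, exact two-sided permutation p = 0.0238). Over 17 alternatives to that CDA-HFD fit the adjusted p ranged from 0.0218 to 0.247. In the alternative without liver 5 the CDA-HFD difference was 0.49 (SE 0.149, adjusted p = 0.0218). The overlap of *Foxo1* with a gene on the opposite strand covers 7.78% of its exon bases.

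**Figure D3:**
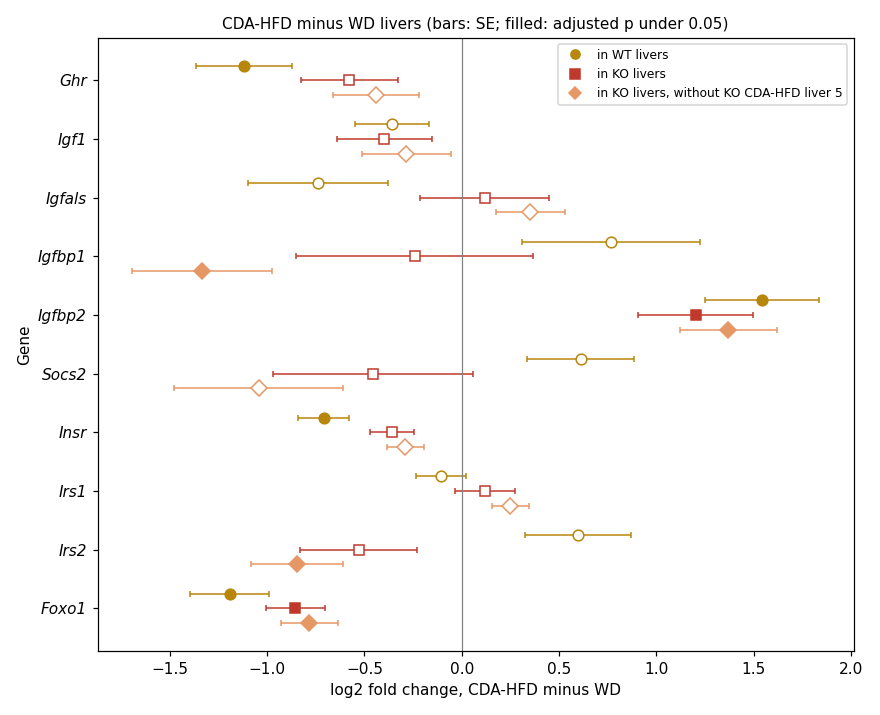
CDA-HFD minus WD difference of each gene on the log2 scale (horizontal axis) in WT livers, in KO livers and in KO livers without KO CDA-HFD liver 5. Bars are standard errors and filled symbols have an adjusted p under 0.05, as for *Igfbp2* at 1.54 in WT and 1.20 in KO livers and *Foxo1* at -1.19 and -0.86.

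Within groups, the livers ranked alike for the growth hormone and insulin receptor genes. After each group mean of log2 CPM was subtracted, Pearson's r over the 20 livers was 0.933 between *Ghr* and *Igf1*, 0.929 between *Ghr* and *Insr*, 0.896 between *Igfals* and *Insr* and 0.806 between *Igf1* and *Igfals*. *Socs2*, which acts downstream of *Ghr*, had r = -0.158 with it and 0.665 with *Irs2*. *Igfbp1* had its largest r in size with *Igfals* and *Irs1*, both -0.466, which without liver 5 were -0.193 and -0.154. These values are descriptions, since livers of a group share a diet and the levels share library depth and cell composition. Without liver 5, r was 0.924 between *Ghr* and *Igf1*, 0.915 between *Ghr* and *Insr* and 0.574 between *Socs2* and *Irs2*. Among 11037 genes, those whose levels within groups were most like *Igf1* were *Acsm3* (r = 0.954), the leukemia inhibitory factor receptor gene *Lifr* (0.948) and the peptidase gene *Dpp4* (0.946). Those most like *Socs2* were the DNA repair gene *Ercc5* (0.864), *Zmym4* (0.857) and *Osgin2* (0.841). For *Igfbp1* they were *LOC118567904* (0.871), *Zfx* (0.851) and *Irf2bp2* (0.846). These genes were picked with all 20 livers. Without liver 5 their r, in the same order, was 0.948, 0.95 and 0.943 for *Igf1*. It was 0.823, 0.814 and 0.82 for *Socs2* and 0.807, 0.781 and 0.772 for *Igfbp1*.

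The rest of the axis was followed through 7 lists of other genes, and the lists are read beside the share of all genes that passed. On WD none of their 141 tested genes differed between KO and WT livers past edgeR's threshold, 25 had an unadjusted p under 0.05 (10.7% of all genes did) and DESeq2 called 1 (164 of all genes). On CDA-HFD the list that stood farthest from 0 was that of growth hormone dependent genes known to be higher in male than in female mouse liver: 7 of 17 tested genes were higher and none lower in KO livers, with a median difference of 1.11 on the log2 scale beside 0.00 over all genes, where 8.19% of all genes were higher and 7.29% lower. Its leading genes were the fatty acid elongase gene *Elovl3*, at 3.45 ± 0.671 CPM in WT and 14.5 ± 5.76 in KO livers (SD, n = 5; adjusted p = 0.00461), and the cytochrome P450 gene *Cyp2d9*, at 88.3 ± 29.6 and 273 ± 89.1 CPM (adjusted p = 0.01). The 7 also include *Cyp4a12a* and *Cyp4a12b*, near-identical copies whose reads cannot be fully separated. Without liver 5, 16 of 19 genes of this list were higher and none lower, where 41.4% of all genes passed. The count was 2 when either WT liver 5 or KO liver 2 of this diet was left out and 5 with scaling by library size, with none lower. Beside this, the 6 hepatocyte markers had a median difference of 0.801 between KO and WT livers on CDA-HFD, with 1 of 6 past the test, and their part in the list's difference was not tested.

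Genes known to be higher in female liver showed no such shift in KO livers on CDA-HFD, with 1 of 11 higher, 1 lower (3 and 2 without liver 5) and a median of 0.08. Over all genes 15.5% passed in this comparison, or 41.4% without liver 5. The higher gene of the female list was the cytochrome gene *Cyp2b9*, at 16.8 ± 9.21 CPM in WT and 106 ± 76.7 in KO livers (adjusted p = 0.0234), which shares sequence with other *Cyp2b* genes and is therefore uncertain. The lower was *Atp6v0d2*, a subunit gene of the vacuolar proton pump that macrophages also express, at 59.4 ± 21.6 CPM in WT and 13.7 ± 16.6 in KO livers (adjusted p = 0.0368, past the threshold in 9 of 17 alternatives), where 3 of 7 macrophage markers were also lower. Among 18 genes of the growth hormone receptor pathway 4 were higher and 1 lower (6 and 3 without liver 5), to be read beside the same shares of all genes. *Onecut1*, a hepatocyte transcription factor gene that responds to growth hormone, rose by 1.61 (log2, SE 0.338, adjusted p = 0.0167) and *Socs7* by 0.42 (SE 0.0908, adjusted p = 0.0175). *Jak2*, the receptor's kinase gene, fell by 0.36 (SE 0.105, adjusted p = 0.0426), a call that held in 6 of 17 alternatives.

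Of 12 further IGF system genes 1 was higher in KO livers on CDA-HFD and none lower. That gene was the carrier gene *Igfbp4*, which rose by 0.67 on the log2 scale, from 1089 ± 146 CPM in WT to 1736 ± 271 in KO livers (SD, n = 5; adjusted p = 0.0222). Without liver 5, 1 of the 12 was higher and 6 were lower. Of 44 genes of the insulin signal relay 6 were higher and none lower, a share no larger than the 15.5% of all genes, among them the adaptor gene *Grb7* (0.60, SE 0.133, adjusted p = 0.0184) and *Foxo3*, a relative of *Foxo1* (0.42, SE 0.0993, adjusted p = 0.0217). Without liver 5, 14 were higher and 4 lower, again no larger a share than the 41.4% of all genes. Of 24 FOXO1 target genes 2 were higher, the pyruvate dehydrogenase kinase gene *Pdk2* (0.92, SE 0.194, adjusted p = 0.0167) and the apolipoprotein gene *Apoc3* (0.86, SE 0.255, adjusted p = 0.0451, past the threshold in 8 of 17 alternatives). Without liver 5 there were 5 higher and 5 lower, close to the share of all genes. Of 15 genes that insulin induces 3 were higher and none lower (6 and 1 without liver 5). Among the 3 were *Ppp1r3c*, a gene that promotes glycogen synthesis, at 12.4 ± 2.95 CPM in WT and 31.4 ± 8.05 in KO livers (adjusted p = 0.00798), and *Mlxipl*, which encodes the carbohydrate sensor ChREBP, at 116 ± 28.5 and 244 ± 54.7 CPM (adjusted p = 0.0132). Of the 14 list genes named for this comparison, 14 passed without liver 5 and 5 passed in every alternative.

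**Figure D4:**
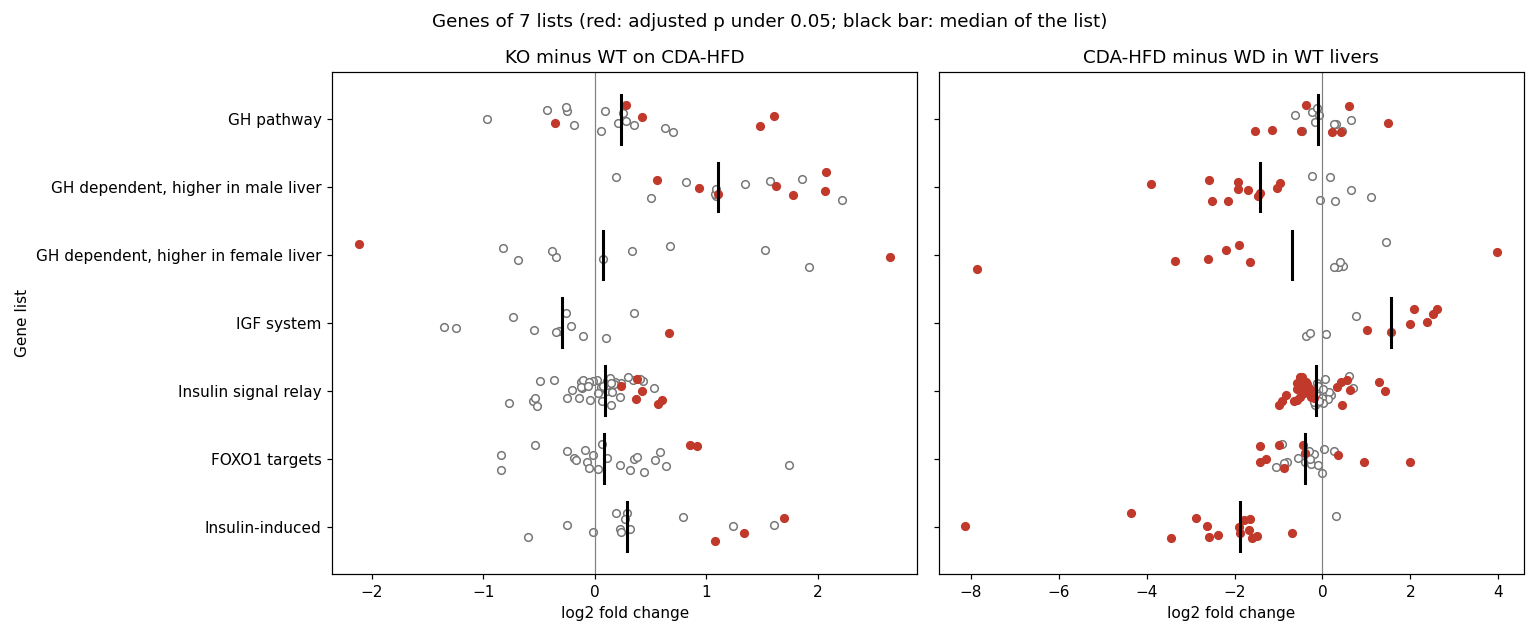
Difference of each tested gene of 7 lists on the log2 scale (horizontal axes), between KO and WT livers on CDA-HFD (left) and between CDA-HFD and WD in WT livers (right). Red points have an adjusted p under 0.05 and black bars are list medians: 1.11 on the left and -1.42 on the right for genes higher in male liver, and 0.29 and -1.89 for genes induced by insulin.

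Between the diets, the genes that insulin induces were lower in WT livers on CDA-HFD, 15 of 16 with none higher and a median of -1.89, where 25.2% of all genes were lower (1 higher and 14 lower with scaling by library size only). *Srebf1*, the transcription factor gene of lipid synthesis, measured 774 ± 59.5 CPM on WD and 150 ± 34.8 on CDA-HFD (adjusted p = 3.27e-06), and *Pnpla3*, a lipid droplet gene, 16.1 ± 3.8 and 1.49 ± 0.139 CPM (adjusted p = 6.21e-07). The male-biased list followed the same direction, with 11 of 17 genes lower, none higher and a median of -1.42 (1 higher and 10 lower by library size). The 11 again include the near-identical copies *Cyp4a12a* and *Cyp4a12b*. *Elovl3* measured 51.5 ± 20.6 CPM on WD (adjusted p = 4.98e-06) and *Cyp2d9* 528 ± 20.8 CPM on WD (adjusted p = 8.28e-06), each above the CDA-HFD values given before. The female-biased list had 6 of 12 lower and 1 higher (5 higher and 6 lower by library size). Its *Cyp17a1*, an enzyme of steroid synthesis, measured 22.4 ± 12.2 CPM on WD and 2.14 ± 1.16 on CDA-HFD (adjusted p = 6.13e-05), *Cyp2b10*, another *Cyp2b* gene, was between 3.795 and 25.43 CPM on WD and at most 0.06713 on CDA-HFD, and *Atp6v0d2* rose by 3.97 (SE 0.326, adjusted p = 9.01e-06).

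The IGF system list had higher genes and none lower in WT livers on CDA-HFD, 7 of 11 with a median of 1.57 (9 higher by library size), where 25.9% of all genes were higher and 25.2% lower. The carrier-like gene *Igfbp7* measured 76.5 ± 18.7 CPM on WD and 306 ± 101 on CDA-HFD (SD, n = 5; adjusted p = 5.37e-05), and the protease gene *Htra1* 3.13 ± 1.24 and 18.1 ± 6.7 CPM (adjusted p = 7.16e-05). Both are also made by mesenchymal cells, and the 6 stellate cell markers had a median difference of 1.37 in this comparison, with 5 higher and their part not tested. In the signal relay 20 of 44 genes were lower and 7 higher, a split that turned to 24 higher and 4 lower with scaling by library size, so no direction is drawn for it. Its *Grb10*, an inhibitor of the insulin receptor, rose by 1.42 (SE 0.173, adjusted p = 7.05e-05), while *Grb7* fell by 0.83 (SE 0.127, adjusted p = 0.000267).

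FOXO1 targets split as 7 lower and 3 higher of 24 in WT livers on CDA-HFD (5 and 5 by library size). Over all genes 25.2% were lower and 25.9% higher, 51.1% in all, and the list's share was no larger. *Mttp*, which loads lipid onto lipoproteins, fell by 1.42 (log2, SE 0.143, adjusted p = 2.61e-05) and *Pdk2* by 1.28 (SE 0.148, adjusted p = 5.39e-05). The stress gene *Gadd45b* rose by 1.99 (SE 0.265, adjusted p = 0.000118) and the ubiquitin ligase gene *Fbxo32* by 0.95 (SE 0.236, adjusted p = 0.00556). The growth hormone pathway split as 4 and 4 of 18 (11 higher and 2 lower by library size), again no larger a share than that of all genes. *Onecut1* fell by 1.53 (SE 0.253, adjusted p = 0.000442), the inhibitor gene *Socs1* rose by 1.49 (SE 0.325, adjusted p = 0.00256) and the phosphatase gene *Ptpn1* by 0.43 (SE 0.122, adjusted p = 0.011). *Stat5b*, the main STAT5 gene of the liver, fell by 0.38 (SE 0.0755, adjusted p = 0.00147) but had a difference of 0.04 with scaling by library size, under which the median of all genes stood at 0.42. Of the 19 list genes named for this comparison, 18 passed in every alternative.

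In KO livers the insulin-induced list was again lower on CDA-HFD, 10 of 15 with 1 higher and a median of -1.25 (11 of 16 without liver 5), where 7.85% of all genes were lower. The elongase gene *Elovl6* measured 306 ± 92.1 CPM on WD and 64.9 ± 12.6 on CDA-HFD (SD, n = 5; adjusted p = 0.000119), *Acaca*, the first enzyme of fatty acid synthesis, 256 ± 75.9 and 77 ± 10.8 CPM (adjusted p = 0.000233), and *Egr1*, an early response gene, rose by 1.13 (SE 0.298, adjusted p = 0.0258). The male-biased list had 4 of 19 genes lower, 1 higher and a median of -0.34 (4 and 2 of 20 without liver 5). Its *Cyp4a12a* fell by 1.48 (SE 0.265, adjusted p = 0.00468) and *Cyp4a12b* by 1.59 (SE 0.27, adjusted p = 0.00344), near-identical copies whose reads cannot be fully separated. *Selenbp2* rose by 2.24 (SE 0.635, adjusted p = 0.0345), a call that held in 10 of 17 alternatives. KO CDA-HFD liver 3 had 302.5 CPM of it against 25.98 to 77.32 in the others of its group. Of the female-biased list 3 of 11 were lower and 1 higher, with or without liver 5, with *Acot3*, a thioesterase gene, at 90.3 ± 40.6 CPM on WD and 24.9 ± 13.8 on CDA-HFD (adjusted p = 0.00851). *Cyp2b10* lay between 1.519 and 13.15 CPM on WD and at most at 0.9058 on CDA-HFD, and *Atp6v0d2* rose by 2.78 (SE 0.711, adjusted p = 0.0236, with a range of 0.00325 to 0.0603 over 16 alternatives). The interaction was fitted gene by gene, and whether a list as a whole differed between KO and WT livers was not tested. Its median was 0.88 over the male-biased and 0.43 over the insulin-induced list, beside 0.02 over all genes. With all livers 0 of 146 list genes passed, 25 had an unadjusted p under 0.05 (15.4% of all genes did) and DESeq2 called 8 (2.44% of all genes). Without liver 5 there were 15 higher and 9 lower, where 11.9% of all genes passed.

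The other lists are given in the same way for KO livers between the diets, beside 17% of all genes past the threshold, or 17.4% without liver 5. In the growth hormone pathway 2 of 18 were higher and 1 lower (1 and 1 without liver 5), among them *Lepr*, the leptin receptor gene (a fall of 1.89, SE 0.204, adjusted p = 0.000233), with *Ptpn6* at 0.39 (SE 0.123, adjusted p = 0.0499, past the threshold in 4 of 17 alternatives). In the IGF system the median difference was 0.68 beside 0.00 over all genes, and 1 of 10 genes was higher and none lower (1 and 1 without liver 5, 4 and none by library size, 5 and none of 12 with all 20 livers in one fit). That gene was *Pappa*, the protease gene that releases IGF from its carriers (2.14, SE 0.639, adjusted p = 0.0413), a call that held in 9 of 16 alternatives. In the relay 4 of 44 were higher and 3 lower (8 and none by library size, 2 and 3 without liver 5), with *Enpp1* at 0.45 (SE 0.0862, adjusted p = 0.00669) and *Grb7* at -0.54 (SE 0.123, adjusted p = 0.0147). Of the FOXO1 targets, whose median difference was -0.28, 3 of 24 were lower and none higher (6 lower without liver 5, 6 lower and 1 higher with DESeq2), among them *Mttp* (-0.88, SE 0.18, adjusted p = 0.00909) and *G6pc*, the last enzyme of glucose production, at 412 ± 125 CPM on WD and 198 ± 56.9 on CDA-HFD (SD, n = 5; adjusted p = 0.0122). Of the 16 list genes named for this comparison, 15 passed without liver 5 and 9 in every alternative.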

How the data were processed

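RNA-seq of 20 livers was analysed, 5 per group, and groups were taken from the labels. The authors deposited raw read counts per gene, not normalized, from an alignment to mm10 per the labels. The aligner and counting program are not given in the sources used here. The labels name a directional kit and the study's methods another, so strand use in counting is unknown. The table's 5 entries for unassigned reads (20.7% to 28.8% without a feature, 18.0% to 28.7% not unique) were left out, and 0 columns were unused. Counts were fitted in R 4.3.3 with edgeR 4.0.16 (limma 3.58.1): filterByExpr, TMM scaling and quasi-likelihood F tests on the 10 livers of each comparison, the interaction on all 20, with Benjamini-Hochberg adjustment over all genes at 0.05. CPM per liver used TMM over 20 libraries with 11697049 to 16827147 reads on genes. Exact two-sided permutation tests used all 252 splits of 5 against 5 livers (smallest p 0.00794). DESeq2 1.42.0 and other scalings and filters, a replicate block and leaving out each library were alternatives. Figures used Python 3.11.15 and matplotlib 3.10.9. The fits were tested on simulated data.

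The genes and lists were chosen with earlier results of these data known. All 10 genes were named in every comparison. From each list and comparison, up to 2 genes with the smallest adjusted p in each direction were named, and for 3 of the 10 genes the 3 with the most similar levels. Some genes that this rule picked are not reported here. The CAAAACA motif and the *Igfals* promoter were added after values were seen. P-values measure the spread between the livers deposited.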

Additional observations from a re-analysis of the deposited data

Results flagged for a closer look

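Among the 40 combinations of the 10 genes and 4 groups, 2 had a liver far from the other 4, with a gap to its nearest neighbour above 0.71 of the group's whole range, and chance alone gives about 2 such cases, or 1 in 20. Both were KO CDA-HFD liver 5. For *Igfbp1* it stood at 116.9 CPM against 14.78 to 21.86 in the others, a gap of 0.931 of the range. For *Irs2* it stood at 70.14 CPM against 28.33 to 37.2, a gap of 0.788.

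Among 156 further combinations for the list genes named by the rule, 14 had such a liver, where chance gives about 7.8, and 7 of the 14 were again KO CDA-HFD liver 5. In that liver the gap was 0.919 for *Atp6v0d2*, 0.924 for *Htra1*, 0.889 for *Pappa*, 0.886 for *Fbxo32*, 0.87 for *Igfbp7*, 0.784 for *Grb10*, all with the liver highest, and 0.792 for *Mttp*, with the liver lowest. *Htra1* measured 40.98 CPM there against 4.256 to 7.037 in the others. In other livers the gap was 0.754 for *Apoc3* (WT WD liver 3, highest), 0.895 for *Cyp17a1* (WT WD liver 2, highest), 0.801 for *Cyp4a12a* (WT CDA-HFD liver 2, highest), 0.883 for *Mttp* (WT WD liver 1, lowest), 0.836 for *Ppp1r3c* (KO WD liver 5, highest), 0.738 for *Ptpn6* (KO WD liver 4, lowest) and 0.814 for *Selenbp2* (KO CDA-HFD liver 3, highest). The genes of one liver are not independent of each other.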

How the results depend on the processing

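Over the 17 alternatives of each 2-group comparison and 26 of the interaction, 871 of 940 values of the 10 genes kept their direction and side of the threshold. Of the others, 10 lost a call, 34 gained 1 and 25 turned direction. None of those that turned had an adjusted p under 0.05 in the main fit. Once turned, *Irs1* (diet, WT) did pass in edgeR with scaling by library size only (adjusted p = 0.0158). On CDA-HFD the count of the 10 genes past the threshold between KO and WT livers was 0 with scaling by library size only, 3 with DESeq2, 4 with all 20 livers in one fit and 3 with a replicate block, and 0 to 8 on leaving out 1 liver (8 without KO liver 5). Over all genes it was 2664, and 1709 by library size, 4144 with DESeq2, 4170 in one fit and 709 (without KO liver 1) to 7201 (without KO liver 5) on leaving out 1 liver. In WT livers between diets the count was 8 by library size, 7 with the replicate block and 4 to 6 on leaving out 1 liver. By library size 9120 genes were higher and 1570 lower, against 4335 and 4207 with TMM. In KO livers between diets it was 1 (without KO WD liver 2) to 4 (without KO CDA-HFD liver 5), with 3371 genes higher and 553 lower by library size against 1506 and 1286 with TMM, and with 4476 calls in one fit and 1568 without KO WD liver 2 against 2792. The interaction passed for 0 to 2 of the 10 genes on leaving out 1 liver (2 without KO CDA-HFD liver 5), and for 99 of all genes against 434 with DESeq2, 44 by library size, 52 without the filter, 8 with the block and 35 to 2138 on leaving out 1 liver. Between KO and WT livers on WD, 12 genes passed, against 164 with DESeq2, 38 without the filter, 26 in one fit, 8 by library size, 2 with the block and 1 to 33 on leaving out 1 liver. Scaling by library size shifted the median log2 difference of all genes to -0.19 between KO and WT livers on CDA-HFD, 0.42 between diets in WT and 0.25 in KO livers, and with it turned *Igfbp2* to -0.20 (KO, CDA-HFD), *Igf1* to 0.049, *Irs1* to 0.33 and *Stat5b* to 0.041 (diet, WT) and *Igfbp1* to 0.15 (diet, KO). The block turned *Igfals* to -0.013 (diet, KO). On leaving out 1 liver the log2 difference ranged from -0.035 to 0.22 for *Ghr*, -0.074 to 0.032 for *Insr* and -0.069 to 0.20 for *Foxo1* (KO, WD), from -0.14 to 0.19 for *Igfbp2* (KO, CDA-HFD), from -0.050 to 0.35 for *Igfals* and -1.33 to 0.11 for *Igfbp1* (diet, KO), and from -0.24 to 0.087 for *Igf1* (interaction). Where no liver or scaling is named, the cause was not tested. Same-numbered livers had correlations of their deviations from -0.367 to 0.349, so the numbers give no pairing. Depth limited the 10 genes little, at 93 reads or more in each liver.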
